A study of Mus musculus with 4 samples.

Results

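Genes of lymphocyte attraction and survival were followed across brain slices after photothrombotic (PT) injury. They were Cxcl12 with its receptors Cxcr4 and Ackr3, Il7 with its receptor gene Il7r, and the survival factor genes Tnfsf13b and Tnfsf13. They were chosen by symbol, and all 7 were found among the 32285 genes of the count tables. Gene activity was measured on Visium capture areas, where barcoded spots catch messenger RNA from a brain slice laid over them, and was counted as unique molecular identifiers (UMIs). PT injury closes cortical vessels by light after an injected dye, and time is given as days post injury (dpi). Wild-type (WT) mice gave 1 slice at rest, 1 slice at 2 dpi, 2 slices at 7 dpi and 2 slices at 21 dpi. A further 2 slices at 21 dpi came from Cthrc1(creER); R26(DTA) mice, called deleter mice here, in which Cre recombinase under Cthrc1 control is meant to switch on diphtheria toxin in Cthrc1-expressing myofibroblasts. The study set those mice aside because no deletion was detectable, and their slices are kept apart from WT here. Age and tamoxifen timing are not given per slice. Each slice is 1 mouse, so groups hold at most 2 replicates, and slice numbers within a group have no meaning. Fibrotic spots were those with at least 5 Col1a1 UMIs per 10000 UMIs, and Col1a1-free spots were those with 0. Col1a1 encodes a chain of type I collagen.

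CXCL12 is a chemokine made by stromal cells of bone marrow and by meningeal and vascular cells. It draws in leukocytes through CXCR4, and ACKR3 is an atypical receptor that binds and removes it. Interleukin 7, made by stromal cells, keeps T cells alive through a receptor that contains the IL7R chain. BAFF, encoded by Tnfsf13b, and APRIL, encoded by Tnfsf13, sustain B cells and plasma cells, and both are made largely by myeloid and stromal cells. Plasma cells, the makers of antibody, are known to lodge near CXCL12-rich stroma in bone marrow. Igkc, the constant region gene of the kappa light chain, is the antibody gene used here to mark spots that hold their RNA.

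On mouse genome GRCm38 (mm10), Cxcl12 lies on the plus strand at chr6:117168535-117181367. Cxcr4 (chr1:128588199-128592293, minus strand) and Ackr3 (chr1:90203980-90216751, plus strand) share a chromosome. Il7 lies at chr3:7569994-7613760 and Il7r at chr15:9505788-9530176, both on the minus strand. Tnfsf13b lies at chr8:10006467-10039072 on the plus strand and Tnfsf13 at chr11:69682846-69685784 on the minus strand. The Tnfsf13 interval overlaps the read-through gene Tnfsfm13 on the same strand, which the count tables do not list, so Tnfsf13 counts can hold reads of that transcript. Antisense genes overlap Il7, Tnfsf13b and Tnfsf13, and the sources used here do not say whether strand was used in counting. Upstream sequences of 250 bases were taken for 6 of the 7 genes from RefSeq (GRCm38.p6). Those of Cxcl12 and Il7r are shown because Cxcl12 was the member that passed between times in fibrotic spots, Il7r had most of its UMIs in fibrotic spots, and their base composition differs.
Cxcl12, chr6:117168285-117168534, plus strand: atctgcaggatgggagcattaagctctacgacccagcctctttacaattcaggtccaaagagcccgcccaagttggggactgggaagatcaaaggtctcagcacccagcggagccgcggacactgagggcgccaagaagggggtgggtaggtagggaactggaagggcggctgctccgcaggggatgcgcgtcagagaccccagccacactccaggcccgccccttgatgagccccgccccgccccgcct
Il7r, chr15:9529877-9530126, minus strand: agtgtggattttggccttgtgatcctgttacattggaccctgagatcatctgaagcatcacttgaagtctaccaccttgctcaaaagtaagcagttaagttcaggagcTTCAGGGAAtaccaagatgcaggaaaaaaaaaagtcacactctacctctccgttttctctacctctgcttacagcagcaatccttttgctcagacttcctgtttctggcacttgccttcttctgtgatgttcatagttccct
The Cxcl12 sequence is 64.4% G or C with 14 CG pairs, and the Il7r sequence is 44.0% G or C with 1. The medians over 32851 such sequences are 52.4% and 6. Capitals mark the palindromic motif TTCNNNGAA, an element that STAT factors can bind, which begins 142 bases before the RefSeq start of Il7r at position 9529876. The GENCODE interval of Il7r given above starts further out, at 9530176, so the printed sequence lies inside that interval. It was found in 1 of 7 sequences of the 6 genes and in 7.02% of all, and a match of letters does not show binding.

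Depth ranged from 11332780 to 23677298 UMIs per slice over 827 to 1726 spots. The slice at 2 dpi stood apart with a median of 2633.5 UMIs per spot, against 12447 to 16158 in the others. Fibrotic spots numbered 3 at rest and 26 at 2 dpi, too few to compare. They numbered 112 and 392 at 7 dpi, 170 and 203 in WT slices at 21 dpi, and 193 and 274 in deleter slices. Time coincides with the capture area except at rest and 2 dpi, which share one. Sex differs along with time, as RNA of Xist was found in both WT slices at 7 dpi and RNA of the Y-linked Ddx3y in both at 21 dpi. Deleter slice 1 held Xist and slice 2 Ddx3y. These cannot be told apart from time. In a sum over spots, fewer cells of a type and less RNA per cell cannot be told apart either. Ms4a1, a gene that marks B cells, stayed at or below 0.0118 UMIs per 10000 in the fibrotic spots of the 6 later slices. Cd3e, which defines T cells, was at 0 in both slices at 7 dpi and at 0.0179 and 0.00701 in the WT slices at 21 dpi. The full marker lists were less sparse. In those spots 4 B cell markers summed to between 0.0491 and 0.130, and 6 T cell markers to between 0.0827 and 0.642. Col1a1-free spots held 0 to 0.0352 and 0.121 to 0.678. Over whole slices the T cell list summed to 0.483 at rest, above 0.145 and 0.218 at 7 dpi. The study found T cells rare in the uninjured brain, so this sum is not read as a number of T cells. Over the 6 slices 2 of 2 tested B cell markers were higher in fibrotic spots. Of 5 tested T cell markers 3 were higher and 1 lower, where 34.8% of all genes were higher. With Col1a1-free sums filtered alone, only 1 of the 4 B cell and 2 of the 6 T cell markers passed the filter on low counts. The other tested markers passed through their fibrotic sums, so these counts are given as a description.

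Cxcl12 was abundant enough to be measured in every slice and was concentrated in fibrotic tissue. Over whole slices it made up 0.360 of every 10000 UMIs at rest and 0.354 at 2 dpi. It made up 0.520 and 0.865 at 7 dpi, 1.16 and 1.64 in WT slices at 21 dpi, and 1.27 and 1.14 in deleter slices. All 4 slices at 21 dpi therefore lay above all 4 earlier slices. How many of all genes separate slices or spot classes without overlap was not counted, here and below. Such separation is thus given as a description. In fibrotic spots the level was 1.24 and 2.01 at 7 dpi, 5.12 and 4.77 in WT slices at 21 dpi, and 4.27 and 4.99 in deleter slices. In Col1a1-free spots it was 0.339 at rest, 0.315 at 2 dpi, 0.477 and 0.231 at 7 dpi, 0.376 and 0.475 in WT slices at 21 dpi, and 0.316 and 0.317 in deleter slices. The 3 fibrotic spots at rest held 9 Cxcl12 UMIs, a level of 4.05 (exact Poisson interval 1.85 to 7.69). The 26 at 2 dpi also held 9, a level of 1.60 (0.731 to 3.03). The value at rest lay above both at 7 dpi, though its interval reached below 2.01. Leptomeningeal markers summed to 360 per 10000 in those spots at rest, against 8.22 in the Col1a1-free spots of that slice. The fibrotic class is set by Col1a1 alone, so it can hold uninjured tissue. The levels of Col1a1-free spots thus showed no order by time, while those of fibrotic spots were higher in each slice at 21 dpi than in either slice at 7 dpi. Fibrotic spots held 56.2% and 73.4% of all Cxcl12 UMIs in the WT slices at 21 dpi, with 12.8% and 25.2% of all UMIs. At 7 dpi they held 13.4% and 75.4% of them, with 5.64% and 32.5% of all UMIs. The share of fibrotic spots with at least 1 Cxcl12 UMI was 44.6% and 69.1% at 7 dpi and 77.6% and 87.7% in WT slices at 21 dpi. Depth differed alongside, with medians of 4923.5 and 9206.5 UMIs per fibrotic spot at 7 dpi and 10828 and 13879 at 21 dpi, and its part in those shares was not tested.

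**Figure D1:**
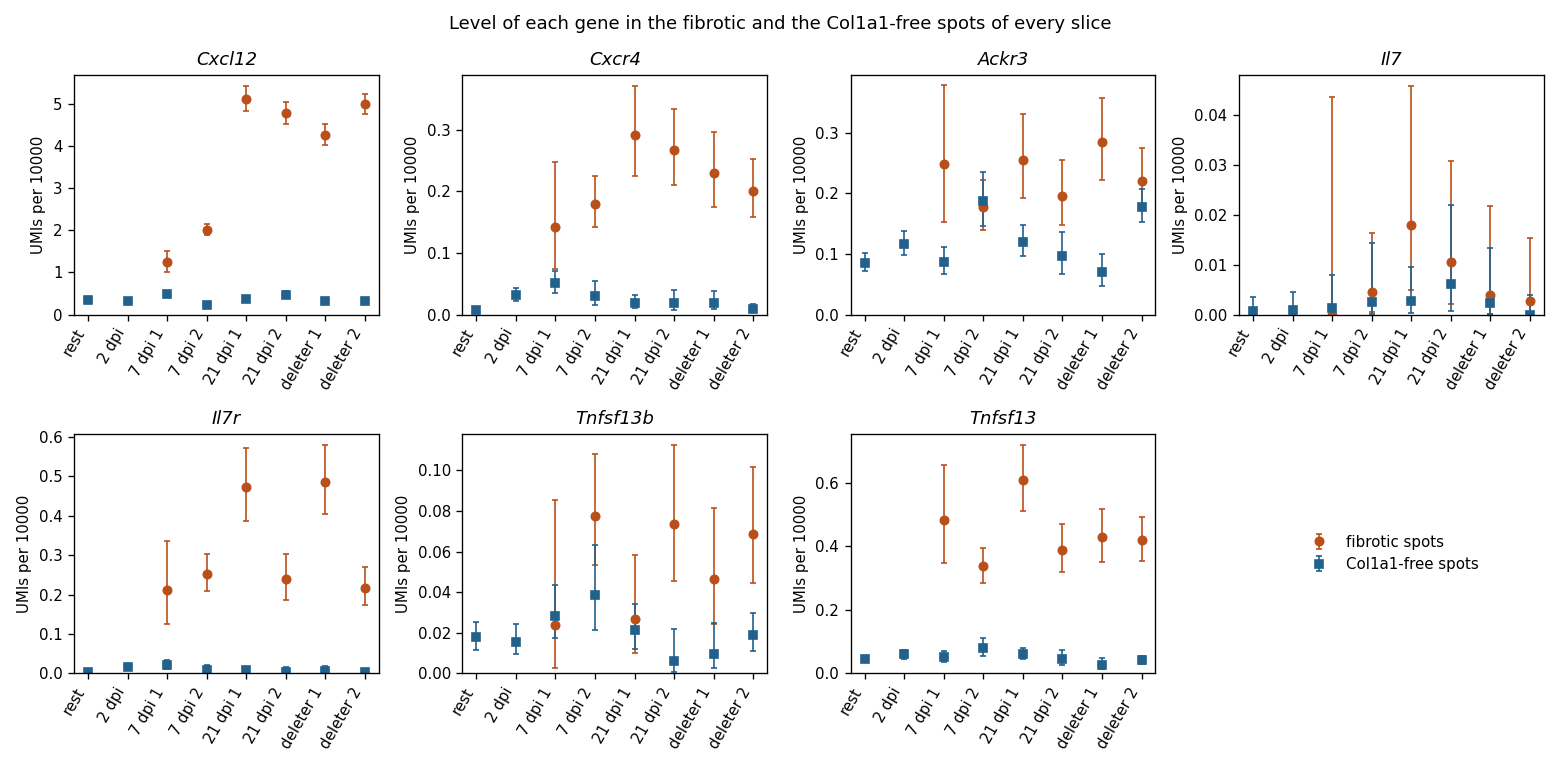
UMIs per 10000 of each gene in the fibrotic spots (circles) and Col1a1-free spots (squares) of each slice, with exact 95% Poisson intervals that cover counting error only. Fibrotic spots at rest and 2 dpi are not drawn, because they number 3 and 26. Cxcl12, Cxcr4, Il7r and Tnfsf13 have fibrotic values above every Col1a1-free value of the same gene. How many of all genes do so was not counted.

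Cxcr4, the signalling receptor, was rare at rest, with 0.00673 UMIs per 10000 over the slice. It reached 0.0298 at 2 dpi, 0.0766 and 0.0925 at 7 dpi, 0.0903 and 0.0953 in WT slices at 21 dpi, and 0.102 and 0.0507 in deleter slices. In fibrotic spots it stood at 0.142 and 0.180 at 7 dpi, 0.291 and 0.266 in WT slices at 21 dpi, and 0.230 and 0.201 in deleter slices. In Col1a1-free spots it stood at 0.0507 and 0.0307 at 7 dpi, and between 0.00837 and 0.0193 in the 4 slices at 21 dpi. Those levels rested on 36 and 12 UMIs at 7 dpi, 14 and 6 in WT slices at 21 dpi, and 8 and 8 in deleter slices. The 2 classes did not overlap, and the 7 dpi slices were the lowest among fibrotic spots and the highest among Col1a1-free spots of the 6 later slices. Most fibrotic spots with a Cxcr4 UMI also held Cxcl12, namely 6 of 10 and 48 of 61 at 7 dpi, and 38 of 40 and 55 of 56 in WT slices at 21 dpi. Among all fibrotic spots of those slices, 44.6%, 69.1%, 77.6% and 87.7% held Cxcl12. Spots were not matched for depth, so these counts were not tested as shared position.

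Ackr3, the scavenging receptor, was spread over the tissue. Whole-slice levels were 0.0893 at rest, 0.124 at 2 dpi, 0.0952 and 0.152 at 7 dpi, 0.158 and 0.143 in WT slices at 21 dpi, and 0.135 and 0.169 in deleter slices. Fibrotic spots held 0.248 and 0.178 at 7 dpi, 0.255 and 0.196 in WT slices at 21 dpi, and 0.284 and 0.220 in deleter slices. Col1a1-free spots of the same slices held 0.0872, 0.187, 0.120, 0.0969, 0.0699 and 0.178. The classes overlapped, and slice 2 at 7 dpi had slightly less Ackr3 in its fibrotic than in its Col1a1-free spots (0.949-fold). Ackr3 also lay above the interior at the tissue edge at rest, with 0.180 against 0.0793 UMIs per 10000. Cxcl12 (0.647 at the edge and 0.328 in the interior) and Tnfsf13 (0.137 and 0.0400) did so too. In Col1a1-free spots alone Ackr3 had 0.149 and 0.0790 and Cxcl12 0.446 and 0.328. Tnfsf13 had 0.0850 and 0.0402 there.

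Il7, the T cell survival cytokine, was too rare to compare. It had 1 UMI at rest, 1 at 2 dpi, 2 and 4 at 7 dpi, 8 and 6 in WT slices at 21 dpi, and 5 and 3 in deleter slices. Il7r was found mostly in fibrotic spots. Over whole slices it had 0.00428 UMIs per 10000 at rest and 0.0153 at 2 dpi, then 0.0440 and 0.0947 at 7 dpi, 0.0754 and 0.0715 in WT slices at 21 dpi, and 0.122 and 0.0435 in deleter slices. In fibrotic spots it reached 0.213 and 0.253 at 7 dpi, 0.474 and 0.238 in WT slices at 21 dpi, and 0.487 and 0.218 in deleter slices. In Col1a1-free spots it was 0.0211 and 0.00768 at 7 dpi and between 0.00303 and 0.00792 at 21 dpi. The classes were far apart, but the fibrotic values of the 2 times overlapped, since slice 2 at 21 dpi lay below slice 2 at 7 dpi. In the 6 later slices fibrotic spots held 27.3%, 86.7%, 80.3%, 84.0%, 79.6% and 76.7% of all Il7r UMIs.

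Tnfsf13, the gene of APRIL, was raised in fibrotic spots at both times. Its whole-slice level was 0.0495 at rest, 0.0603 at 2 dpi, 0.101 and 0.188 at 7 dpi, 0.153 and 0.150 in WT slices at 21 dpi, and 0.135 and 0.108 in deleter slices. Fibrotic spots held 0.484 and 0.337 at 7 dpi, 0.608 and 0.389 in WT slices at 21 dpi, and 0.428 and 0.419 in deleter slices. Col1a1-free spots of these slices held between 0.0265 and 0.0794, so the classes did not overlap while the times did. Tnfsf13b, the gene of BAFF, was sparser. Its whole-slice level was 0.0171 at rest, 0.0160 at 2 dpi, 0.0340 and 0.0518 at 7 dpi, 0.0286 and 0.0247 in WT slices at 21 dpi, and 0.0233 and 0.0253 in deleter slices. Its fibrotic levels of 0.0236 and 0.0774 at 7 dpi, 0.0268 and 0.0736 in WT slices at 21 dpi, and 0.0467 and 0.0689 in deleter slices rested on 2, 34, 6, 21, 12 and 25 UMIs. They overlapped the Col1a1-free levels, which ran from 0.00606 to 0.0384.

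Fibrotic and Col1a1-free spots were compared within slices by edgeR's quasi-likelihood test on summed UMIs, with the slice as a block. Over the 6 slices from 7 dpi on, 6 of the 6 genes that passed the filter on low counts were higher in fibrotic spots. Il7 was not tested. Fibrotic and free tissue differ widely, since 34.8% of the 14477 genes tested were higher in fibrotic spots, and the count of members is read against that share. Il7r had only 15, 3, 6, 1, 2 and 4 UMIs in the Col1a1-free sums and passed the filter through its fibrotic sums, so it had to differ. Its log2 fold change of 5.21 is given as a description, here and in the groups below, where it stands in each count. The median log2 fold change over all genes was 0.02, and over the 6 members, Il7r included, 3.25. Cxcr4 had 3.33 (SE 0.34, edgeR adjusted p = 1.63e-05), Cxcl12 3.30 (SE 0.30, edgeR adjusted p = 8.07e-06) and Tnfsf13 3.19 (SE 0.20, edgeR adjusted p = 1.47e-06), each higher in 6 of 6 slices. Tnfsf13b had 1.46 (SE 0.38, edgeR adjusted p = 0.00666) and Ackr3 0.93 (SE 0.24, edgeR adjusted p = 0.00678), each higher in 5 of 6. By size of the log2 fold change these 5 genes ranked at percentiles 96.2, 96.1, 95.8, 84.6 and 78.1 of all genes tested.

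The same difference was then estimated for each group. At 7 dpi, where 22.2% of genes were higher in fibrotic spots, 4 of 6 members were. The log2 fold change was 2.34 for Cxcl12 (SE 0.33, edgeR adjusted p = 0.000354), 2.12 for Cxcr4, 4.01 for Il7r and 2.70 for Tnfsf13. Ackr3 had 0.58 and Tnfsf13b 0.76, with edgeR adjusted p of 0.317 and 0.361. Without slice 1 the Cxcl12 value at 7 dpi was 3.19, and without slice 2 it was 1.47. The Cxcr4 call at 7 dpi rested on slice 2, without which the log2 fold change was 1.57 (edgeR adjusted p = 0.076). In WT slices at 21 dpi, with 29.0% of genes higher, 5 of 6 members were. Cxcl12 had 3.60 (SE 0.31, edgeR adjusted p = 7.51e-06), Cxcr4 3.97, Il7r 5.97, Tnfsf13 3.29 and Ackr3 1.10. The Ackr3 adjusted p of 0.044 was close to the threshold of 0.05, and it was lost in 4 of 8 alternative settings and without either WT slice at 21 dpi (0.220 and 0.110). Tnfsf13b had 1.67 (edgeR adjusted p = 0.0561), which passed in 5 of 8 alternative settings (lowest edgeR adjusted p = 0.0118). It became 3.55 without slice 1 (edgeR adjusted p = 0.0087) and 0.42 without slice 2. In deleter slices, with 28.8% of genes higher, 5 of 6 members were, namely Cxcl12 (3.86), Cxcr4 (4.08), Il7r (5.99), Tnfsf13 (3.57) and Tnfsf13b (1.97, edgeR adjusted p = 0.0186). Ackr3 had 0.98 (edgeR adjusted p = 0.0531) and passed in 3 of 8 alternative settings, with 0.33 without deleter slice 1 and 1.91 without deleter slice 2 (edgeR adjusted p = 0.0126). Without deleter slice 1 or 2, Tnfsf13b had adjusted p of 0.0901 and 0.162.

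**Figure D2:**
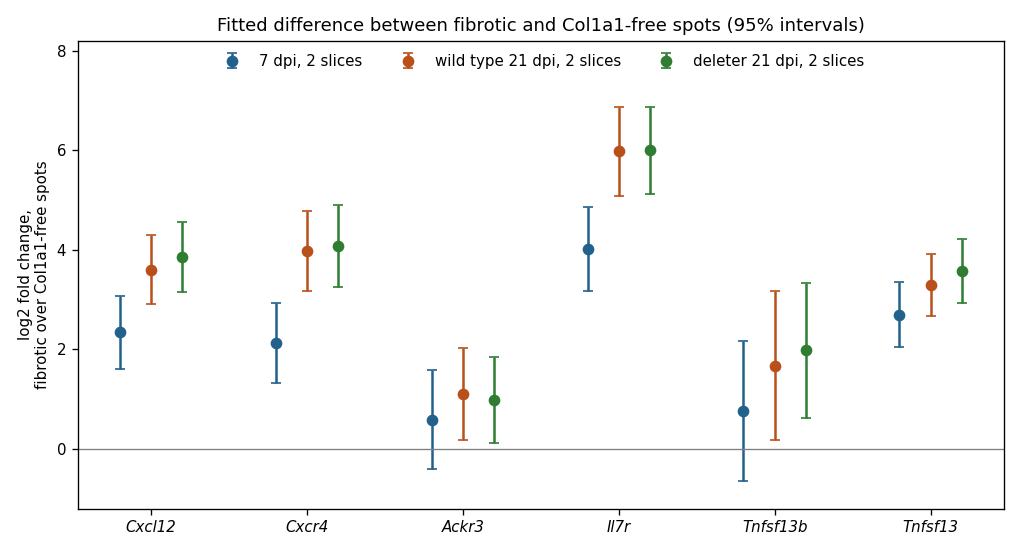
Log2 fold change of fibrotic over Col1a1-free spots for the 6 genes tested, in 3 groups of 2 slices, with 95% intervals from the edgeR fit. The estimate at 7 dpi is the lowest of the 3 for each gene, and the test of the difference between the WT groups is given in the text.

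The step from Col1a1-free to fibrotic tissue was compared between the 2 WT times as a difference of log2 fold changes. It was larger at 21 dpi by 1.26 for Cxcl12 (SE 0.43, edgeR adjusted p = 0.161) and by 1.85 for Cxcr4 (SE 0.53, edgeR adjusted p = 0.1). The Cxcr4 value rests on Col1a1-free sums of 36 and 12 UMIs at 7 dpi and 14 and 6 at 21 dpi. For Il7r the step was larger by 1.96, which is given as a description but stands in the counts. Its Col1a1-free sums held only 15 and 3 UMIs at 7 dpi and 6 and 1 at 21 dpi. By edgeR 0 of 6 members passed, 3 had an unadjusted p under 0.05, DESeq2 called 0 of the 4 for which it gave an adjusted p, and 3.07% of all genes passed. Of the 14477 genes tested, 2652 had an unadjusted edgeR p under 0.05. Without the filter on low counts 3 members passed, Cxcl12, Cxcr4 and Il7r, the last on those few Col1a1-free UMIs. Without slice 2 at 7 dpi the Cxcl12 difference was 2.13 (edgeR adjusted p = 0.0275), and without slice 1 it was 0.40. Without slice 1 at 7 dpi that of Il7r was 0.91 and that of Cxcr4 1.36, and without slice 2 they were 2.56 and 2.40, none of them past the threshold. The Cxcl12 difference also passed with the threshold of 10 Col1a1 UMIs per 10000, at 1.46 (edgeR adjusted p = 0.0378).

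Within fibrotic spots alone, Cxcl12 was the only 1 of 6 members that passed between WT slices at 21 dpi and 7 dpi. It was higher at 21 dpi by a log2 fold change of 1.54 (SE 0.20, 95% interval 1.11 to 1.98, edgeR adjusted p = 0.00205), with both later slices above both earlier ones. In this comparison 2.50% of 13289 genes were higher at 21 dpi. With each slice left out in turn the value lay between 1.29 and 1.95. With the lower threshold of 2 Col1a1 UMIs per 10000 it was 1.41 and no longer passed (edgeR adjusted p = 0.0719). Cxcr4 had 0.69 (95% interval 0.20 to 1.18, edgeR adjusted p = 0.117), Il7r 0.52, Tnfsf13 0.34, Ackr3 0.17 and Tnfsf13b -0.31. The intervals of the last 4 ran from -0.38 to 1.41, from -0.21 to 0.90, from -0.42 to 0.75 and from -1.52 to 0.90.

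Other tissue markers moved between the same spots. The summed level of 6 fibroblast markers, with the class-setting Col1a1 among them, was 52.2 and 94.2 UMIs per 10000 at 7 dpi. It was 83.5 and 118 at 21 dpi, so the times overlapped, and 2 of the 6 markers (Dcn and Lum) passed. Cxcl12 UMIs per 100 fibroblast marker UMIs were 2.37 and 2.13 at 7 dpi, 6.13 and 4.06 in WT slices at 21 dpi, and 3.23 and 3.48 in deleter slices. Per 100 Col1a1 UMIs they were 8.59 and 6.56, then 24.1 and 11.5, and 13.2 and 13.1. Both ratios were thus higher in each later slice. The 5 leptomeningeal markers summed to 14.6 and 19.3 at 7 dpi and 95.2 and 57.4 at 21 dpi, nearly all of it Ptgds, and 1 of the 5 passed. The 5 plasma cell markers summed to 1.00 and 1.29 at 7 dpi and 8.59 and 13.1 at 21 dpi, and 2 of the 4 tested passed. The 6 myeloid markers summed to 80.0 and 90.4, then 112 and 107, with 1 higher (Lyz2) and 1 lower (Cd68). The 4 neutrophil markers summed to 1.38 and 0.776, then 2.31 and 4.58, with 2 of 3 tested higher. The 4 astrocyte markers summed to 14.0 and 15.2, then 21.9 and 23.4, with 2 higher (Gfap and Aqp4). Of the other lists, 2 mural markers (Acta2 and Tagln) and 1 neuron marker (Slc17a7) were lower and 1 T cell marker (Cd3d) was higher at 21 dpi. Their part in the Cxcl12 difference was not tested. Whether sparse markers, such as those of plasma cells and T cells, passed the filter only through their sums at 21 dpi was not checked. A marker that did so had to be higher at 21 dpi, so the counts of these lists are given as a description.

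In Col1a1-free spots 0 of the 5 members tested differed by edgeR between WT slices at 21 dpi and 7 dpi, where 3.14% of genes did. Among the members Cxcr4 alone had an unadjusted p under 0.05, as did 2525 of the 14149 genes tested, and DESeq2 called 0 members. The log2 fold change of Cxcr4 was -1.19 (edgeR adjusted p = 0.28). The 6 myeloid markers summed to 18.7 and 22.5 UMIs per 10000 there at 7 dpi against 6.96 and 4.28 at 21 dpi. Their part was not tested. The log2 fold change of Cxcl12 was 0.21 (95% interval -0.48 to 0.90, edgeR adjusted p = 0.766). Il7 and Il7r did not pass the filter there.

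The fibrotic class was also divided by its Col1a1 level, as a description. In WT slices at 21 dpi Cxcl12 was higher bin by bin over spots with 5 to 10, 10 to 25, and 25 and over Col1a1 UMIs per 10000, at 2.80, 5.52 and 8.14 in slice 1 and 1.5, 4.72 and 7.94 in slice 2. Deleter slices gave 1.53, 3.26 and 7.74, and 1.45, 4.16 and 8.59. At 7 dpi the same bins held 1.07, 1.41 and 1.44 in slice 1, where the last bin has only 17 spots, and 0.733, 1.5 and 3.11 in slice 2. In the highest bin all 4 slices at 21 dpi lay above both slices at 7 dpi. Il7r was higher bin by bin in 5 of the 6 slices, from 0.0279, 0.198 and 0.464 in WT slice 2 at 21 dpi to 0.234, 0.404 and 0.795 in deleter slice 1. In slice 1 at 7 dpi it was not, with 0.116, 0.360 and 0.180 on 5, 11 and 2 UMIs. Tnfsf13 was higher bin by bin in slice 2 at 7 dpi (0.147, 0.379 and 0.407) and in deleter slice 2 (0.212, 0.480 and 0.561), and in the other 4 slices its highest bin was not the last. Cxcr4 was higher bin by bin in slice 2 of each group but not in slice 1. Its slice 1 values were 0.247, 0.327 and 0.310 in WT at 21 dpi and 0.296, 0.173 and 0.224 in the deleter group. At 7 dpi they were 0.116, 0.197 and 0.0901, on 5, 6 and 1 UMIs. Ackr3 was higher bin by bin only in slice 2 at 7 dpi (0.156, 0.160 and 0.203).

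Distance from fibrotic tissue was counted in steps between neighbouring spots. In WT slices at 21 dpi Cxcl12 was at 5.12 and 4.77 in fibrotic spots, 1.33 and 0.966 at 1 step, 0.700 and 0.748 at 2 steps, and 0.402 and 0.473 at 6 steps and over. At 7 dpi it was already at 0.473 and 0.536 at 1 step, and at 0.554 and 0.297 at 6 steps and over. Slice 1 at 7 dpi was thus higher far from fibrotic spots than beside them, but the Poisson intervals overlapped (0.507 to 0.605 and 0.344 to 0.635). Cxcr4 differed between slices. In WT slices at 21 dpi it had 0.291 and 0.266 in fibrotic spots, 0.229 and 0.103 at 1 step, and 0.0970 and 0.0453 at 2 steps. At 7 dpi it had 0.142 and 0.180 in fibrotic spots and 0.215 and 0.0883 at 1 step. The higher value outside in slice 1 rested on 20 UMIs against 12, with overlapping Poisson intervals (0.131 to 0.332 and 0.0732 to 0.248). Deleter slices had 0.230 and 0.201 in fibrotic spots and 0.207 and 0.0948 at 1 step. Il7r was at 0.474 in fibrotic spots against 0.0481 at 1 step in WT slice 1 at 21 dpi, and 0.238 against 0.0516 in slice 2. These gradients are given without a test.

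**Figure D3:**
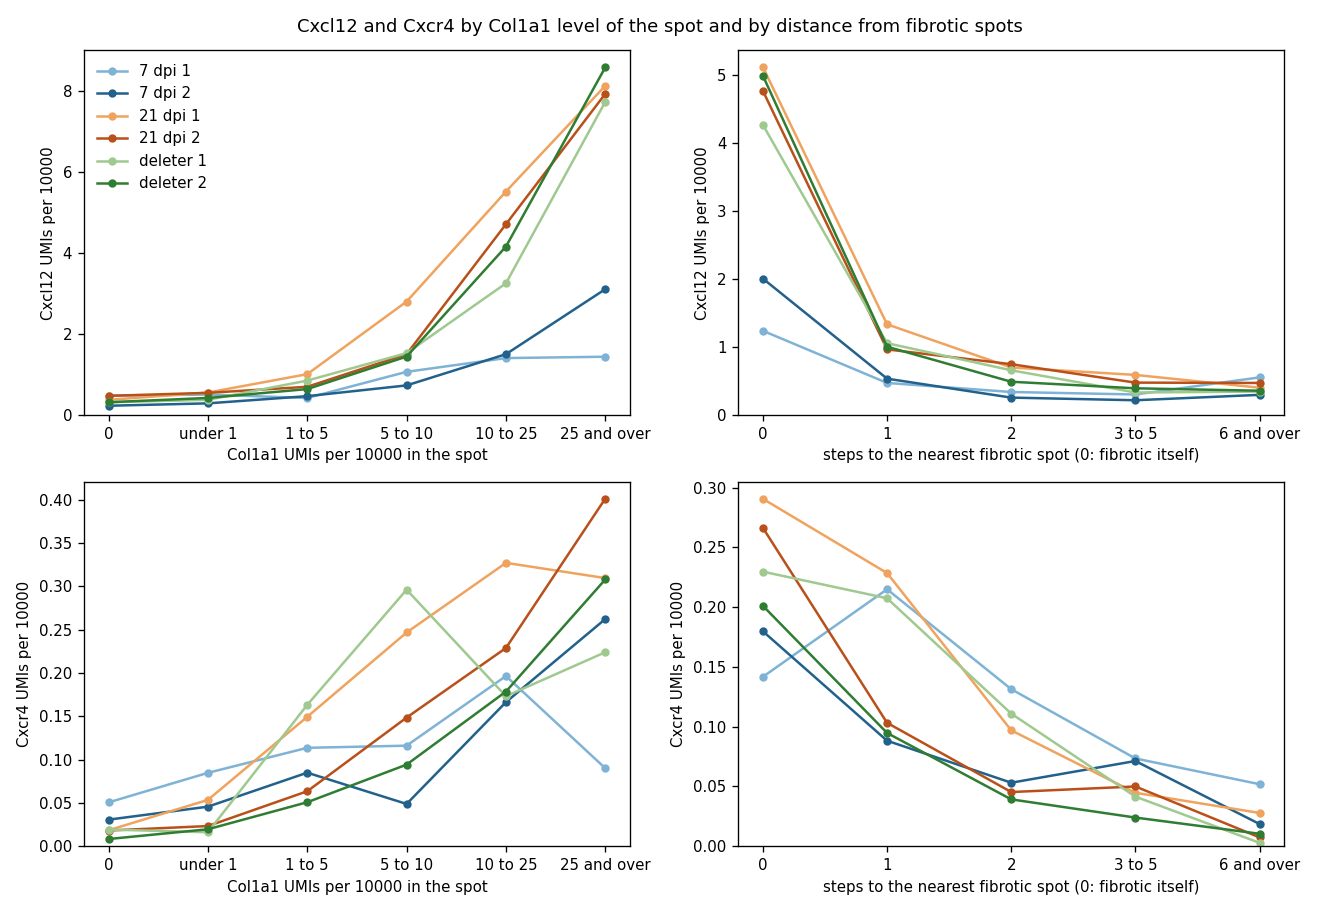
Cxcl12 (top) and Cxcr4 (bottom) in UMIs per 10000, by the Col1a1 level of the spot (left) and by the number of steps to the nearest fibrotic spot (right), 1 line per slice. Cxcl12 reaches 7.74 to 8.59 in the highest Col1a1 bin of the 4 slices at 21 dpi and is at 1.33 or below 1 step away from fibrotic spots.

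The spots were also ranked by markers of cell types, and the tenth of spots richest in a marker list was set against the other spots of that slice. A spot can hold several cells, so this shows neighbourhood and not the cell of origin, and the marker lists themselves overlap in space. The fibroblast list was Col1a1, Col1a2, Dcn, Lum, Pdgfra and Col3a1. It holds the gene that sets the fibrotic class, so its folds are not independent of the comparison of classes above. In the 4 slices at 21 dpi, Cxcl12 was 8.68 to 14.8-fold higher in fibroblast-rich spots and 6.15 to 8.03-fold higher in myeloid-rich spots. It was 4.54 to 6.69-fold higher in endothelial-rich spots and 0.170 to 0.265 times as high in neuron-rich spots. Cxcr4 had the reverse order, with 8.78 to 12.8-fold in myeloid-rich and 2.59 to 8.56-fold in fibroblast-rich spots. Il7r was high beside both, with 14.1 to 32.7-fold for fibroblast and 15.7 to 26.6-fold for myeloid markers. Tnfsf13 had 3.60 to 9.18-fold for fibroblast and 4.75 to 7.13-fold for myeloid markers, and for leptomeningeal markers it had 4.26 to 4.76-fold, against 2.43 to 3.36-fold for Cxcl12. Ackr3 stayed between 1.67 and 3.82-fold for fibroblast markers. At rest Cxcl12 was highest beside leptomeningeal (3.24-fold), fibroblast (3.01-fold) and astrocyte (2.50-fold) markers. Tnfsf13 at rest was 8.53-fold higher in the leptomeningeal-rich spots.

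**Figure D4:**
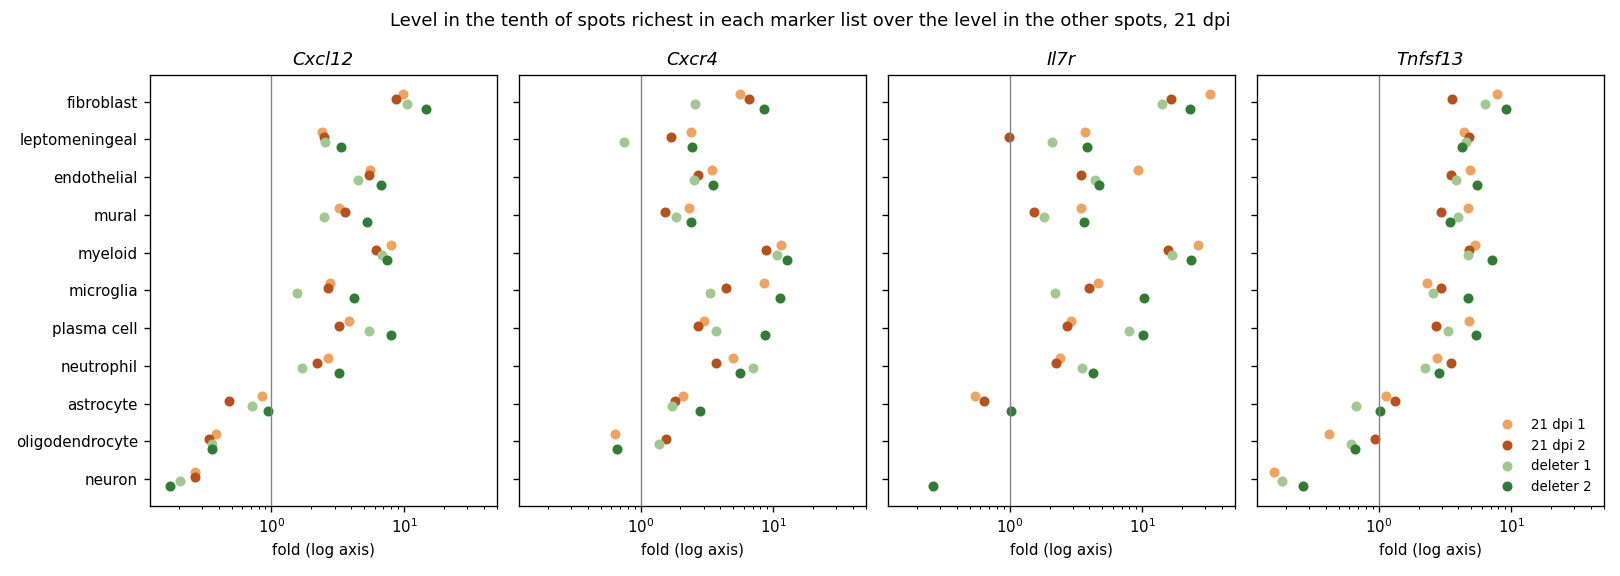
Level of 4 genes in the tenth of spots richest in each marker list, divided by the level in the other spots of the same slice, on a log axis, for the 4 slices at 21 dpi. Points are missing where either side held 3 UMIs or fewer. Cxcl12 is highest in fibroblast-rich spots and Cxcr4 in myeloid-rich spots. The fibroblast list includes Col1a1, which sets the fibrotic class.

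Antibody RNA was almost absent before 21 dpi and was set against the 7 genes only there. Igkc had 0.00183 UMIs per 10000 at rest, 0.0206 at 2 dpi and 0.0120 and 0.0104 at 7 dpi, against 1.57 and 2.82 in WT and 3.60 and 5.56 in deleter slices at 21 dpi. Correlations were taken over the spots of a slice, on the natural log of 1 plus UMIs per 10000. Spots of a slice share 1 mouse and 1 library, so they describe and carry no test. Cxcl12 had a Pearson r of 0.412 and 0.391 with Igkc in WT slices (1339 and 827 spots) and 0.449 and 0.538 in deleter slices (911 and 1591 spots). That placed it between percentiles 98.5 and 99.7 of the genes with at least 100 UMIs, whose median r lay between -0.0160 and 0.00888. Mean r over the 4 slices was 0.447 ± 0.0649 (SD, n = 4) for Cxcl12, 0.266 ± 0.0959 for Il7r, 0.251 ± 0.0489 for Cxcr4 and 0.223 ± 0.0262 for Tnfsf13. It was 0.0971 ± 0.0549 for Tnfsf13b, 0.0849 ± 0.105 for Ackr3 and 0.0431 ± 0.0552 for Il7. In sparse genes such weak values say little. Ackr3 was the only member below 0 in any slice, with -0.0590 in deleter slice 2. Col1a1 itself had r of 0.402, 0.471, 0.478 and 0.696, so position in fibrotic tissue is shared by these values.

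Within fibrotic spots the Cxcl12 correlation with Igkc was 0.388 and 0.183 in WT slices and 0.425 and 0.326 in deleter slices, at percentiles between 95.3 and 99.8. There the mean r was 0.116 for Cxcr4, 0.0989 for Tnfsf13 and 0.203 for Il7r. Fibrotic spots with 0 Igkc UMIs held 3.20 and 4.65 Cxcl12 UMIs per 10000 in WT slices and 2.47 and 3.0 in deleter slices. Those with 10 or more held 8.14 and 5.89, and 6.79 and 6.47. The first of these WT values rests on 19 spots. In WT slice 2 the bins between lay at 4.89 and 4.17, so the order was not steady. Depth moved with Igkc, as fibrotic spots with 0 Igkc UMIs had medians of 8104 to 9094.5 UMIs and those with 10 or more had 16101 to 21241. Its part was not tested. Tnfsf13b and Tnfsf13, whose products act on plasma cells, had at most 0.156 and 0.252 with Igkc over all spots of any slice. That placed Tnfsf13 at percentiles 95.1 and 90.6 in WT and 87.9 and 94.3 in deleter slices. Within fibrotic spots it lay between percentiles 60.5 and 89.0. Tnfsf13b had fewer than 100 UMIs per slice and was not ranked.

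**Figure D5:**
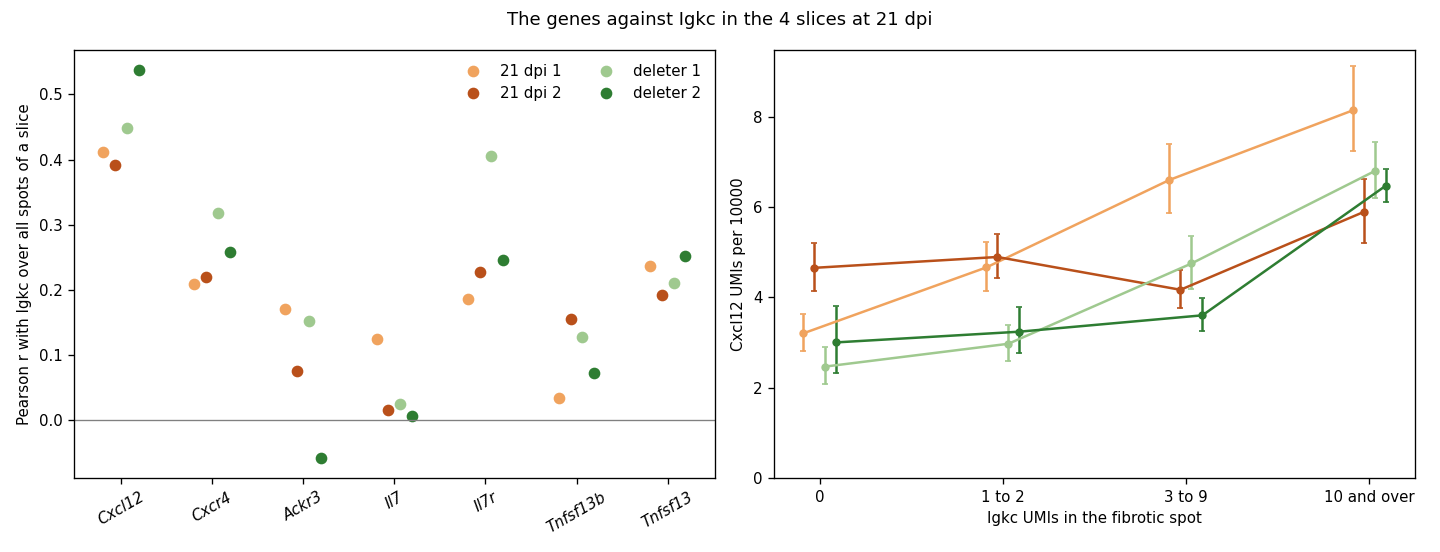
Left, Pearson r of each gene with Igkc over all spots of each of the 4 slices at 21 dpi. Right, Cxcl12 UMIs per 10000 in fibrotic spots grouped by their number of Igkc UMIs, with exact 95% Poisson intervals that cover counting error only. Cxcl12 has the highest r in each slice, and its level is highest where Igkc reaches 10 UMIs.

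Deleter and WT fibrotic spots at 21 dpi were compared last. They lay on different capture areas, so genotype cannot be told apart from capture area. Sex differed in part, as deleter slice 1 held Xist and both WT slices held Ddx3y. By edgeR 0 of 6 members differed, 0 had an unadjusted p under 0.05, DESeq2 called 0, and 0.0226% of all genes passed. An unadjusted edgeR p under 0.05 was found for 839 of the 13289 genes tested. The log2 fold change, deleter over WT, was -0.08 for Cxcl12 (95% interval -0.50 to 0.33), -0.37 for Cxcr4 (-0.81 to 0.08) and -0.02 for Il7r (-0.84 to 0.80). It was -0.21 for Tnfsf13 (-0.73 to 0.30), 0.17 for Ackr3 (-0.37 to 0.70) and 0.19 for Tnfsf13b (-0.99 to 1.36).

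Partner genes were counted from 3 lists. Their counts are read against all 14477 genes tested, of which 34.8% were higher and 33.6% lower in fibrotic spots. Of the CXCL12 list of 13 genes 12 were tested over the 6 slices, and 7 were higher and 4 lower in fibrotic spots, with a median log2 fold change of 1.33. The highest were Cd74, the class II invariant chain that also serves as a MIF receptor (4.51), and the chemokine receptor gene Cxcr3 (4.38). Rgs1, which damps chemokine receptor signals, had 3.34. Gnai2, the G protein subunit that CXCR4 signals through, had 1.40. Dpp4, whose product cleaves CXCL12, had 1.70, and Adm, another ligand of ACKR3, had 1.34. The beta-arrestin genes split, with 1.32 for Arrb2 and -0.42 for Arrb1. Grk3, a kinase gene of receptor desensitisation, was lower at -1.05, Mif, whose product also binds CXCR4, at -0.40 and the chemokine gene Cxcl14 at -0.28. Of the IL-7 list of 11 genes 10 were tested and 9 were higher, with a median of 1.83. The shared gamma chain Il2rg had 3.29, Il2rb 3.39 and Jak3, the kinase bound to the gamma chain, 2.06. Stat5a had 2.62, Il15, a related survival cytokine, 2.01, and the survival gene Bcl2 0.60. The TSLP receptor gene Crlf2, whose product pairs with IL7R, had 1.65. Of the BAFF and APRIL list of 12 genes 9 were tested and 9 were higher, with a median of 1.79. Sdc1, a surface proteoglycan of plasma cells and epithelia that binds APRIL, had 4.41. Tnfsf12, the neighbour of Tnfsf13, had 2.45, the receptor gene Tnfrsf13b 2.29, Il6st 1.91 and the survival gene Mcl1 1.79. Il15ra, Stat5b, Map3k14, Nfkb2, Traf2 and Traf3, which carry or relay these signals, also passed, with 0.25 to 1.62. The kinase genes Jak1 (0.12) and Grk2 (-0.11) did not. The receptors Tnfrsf13c and Tnfrsf17 did not pass the filter. With Col1a1-free sums filtered alone, 11 genes of the CXCL12 list and 9 of the IL-7 list passed, against 12 and 10 above. Genes beyond these passed through their fibrotic sums and had to be higher. The genes concerned are not named here, so the counts, medians and single values of those lists are given as a description. Between WT times in fibrotic spots, Cd74 (2.22, edgeR adjusted p = 0.0014) and Il2rb (2.68, edgeR adjusted p = 0.0329) were higher at 21 dpi. Whether they passed the filter only through their sums at 21 dpi was not checked. In the difference of the fibrotic step between times, Rgs1 (3.48), Il6st (1.03) and Gnai2 (0.72) passed, with edgeR adjusted p of 0.011, 0.0272 and 0.0498. In Col1a1-free spots Rgs1 was lower at 21 dpi than at 7 dpi, at -3.72 (edgeR adjusted p = 0.0242).

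For each member the genes with the most similar pattern over the 12 sums of 6 slices by 2 classes were found by Pearson correlation among 13897 genes. The sums fall into the 2 classes, so high values are common, and each list is a description. Nearest to Cxcl12 were Pltp, Gstm2, Gypc, Il11ra1 and Mrc1, with r from 0.989 to 0.994. Nearest to Cxcr4 were Tap2, Icam1, Cryzl2, Vwa5a and Ifi47 (0.990 to 0.994), and nearest to Il7r were Pirb, Ahnak, Prr13, Clec4d and Anxa1 (0.991 to 0.994). Tnfsf13 lay closest to Myl9, Fabp4, Fut11, Pla2g15 and Ptafr (0.988 to 0.989). Ackr3 and Tnfsf13b reached only 0.917 with Lman2 and 0.946 with Trabd. Among the members, Cxcr4 and Il7r had r of 0.977 and Cxcl12 and Cxcr4 0.944, while Cxcl12 and Ackr3 had 0.685.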

How the data were processed

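Per the submitters' processing notes, the authors aligned reads to mm10 with Space Ranger 2.0.0. The deposited matrices hold UMI counts that the authors did not normalize. The deposited spot barcodes, gene names and array positions (other values) were used as given, and image scale factors were not used. Spots over tissue were split into 2 connected pieces per capture area, each taken as 1 slice. For rest and 2 dpi, the smaller piece of their shared capture area, with 1017 spots, was taken as the slice at rest. The labels do not say which is which, and the choice follows the outlines in the study's images. The 4 spots without UMIs entered no class. UMIs were summed per slice and class (fibrotic, at least 5 Col1a1 UMIs per 10000, or Col1a1-free, 0).

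Sums were tested with edgeR 4.0.16 in R 4.3.3 with TMM scaling after filterByExpr, by the quasi-likelihood test, and p-values were adjusted over all genes tested (Benjamini-Hochberg, threshold 0.05). Standard errors are the log2 fold change over the square root of F. The script was tested on simulated data. Alternatives were DESeq2 1.42.0, library size only, no filter on low counts, fibrotic thresholds of 2 and 10, spots with at least 1000 UMIs, a free class below 1 per 10000, no slice block, and each slice left out. Folds between spot groups required more than 3 UMIs on both sides. Intervals at the 95% level for levels are exact Poisson and cover counting error only.

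Members and lists were chosen with earlier results of these data known. Named genes were the members, pathway genes past the threshold or paired with a member, and the 5 genes most alike in log2(CPM + 1) among genes with at least 100 UMIs. Gene positions are from GENCODE M21. Cxcl11 was not matched by symbol.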

Additional observations from a re-analysis of the deposited data

How the results depend on the processing

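Each comparison of fibrotic with Col1a1-free spots was recomputed under 8 other settings and with each of the 6 slices left out. Comparisons within fibrotic spots had 6 other settings and those within Col1a1-free spots 5, since some did not apply. The Igkc correlations had 3 and no slice left out. Over 617 fitted values with an adjusted p for the members, 565 kept their direction and their side of the threshold. Of the rest, 10 lost a call, 18 gained one and 24 changed sign. All 6 tested members kept their call over the 6 slices under every alternative, with Cxcl12 between 2.73 and 3.68 on the log2 scale under other settings and between 3.11 and 3.62 with slices left out. Without the filter on low counts, calls went from 445 to 1475 for the difference of the fibrotic step, from 583 to 1317 between times in fibrotic spots, from 444 to 1702 between times in Col1a1-free spots, and from 3 to 171 between deleter and WT. At a fibrotic threshold of 2, those of the difference, of times in fibrotic spots and of deleter against WT were 271, 160 and 0, and at 10 the difference had 867. DESeq2 called 9 genes between deleter and WT. With slices left out, calls ranged from 3041 to 6288 at 7 dpi (6194 with all slices), from 128 to 597 for the difference, from 251 to 633 and from 111 to 332 between times in fibrotic and in Col1a1-free spots, and from 1 to 93 between deleter and WT, the last without WT slice 1 at 21 dpi. The cause was not tested.

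Signs turned only for member values that had not passed. With the free class below 1 per 10000, Ackr3 between times in Col1a1-free spots was 0.000995. At a fibrotic threshold of 2, Ackr3 and Tnfsf13b between deleter and WT were -0.0230 and -0.22, and at 10 Tnfsf13b was -0.0291. With slices left out, the log2 values at 7 dpi ranged from -0.00540 to 1.59 for Ackr3 and from -0.16 to 1.07 for Tnfsf13b. For the difference they ranged from -0.49 to 1.10 for Ackr3, from -0.37 to 2.78 for Tnfsf13b and from -0.0150 to 1.13 for Tnfsf13. Between times in fibrotic spots they ranged from -0.19 to 0.39 for Ackr3, from -0.0133 to 0.98 for Il7r, from -1.24 to 1.08 for Tnfsf13b and from -0.0144 to 0.69 for Tnfsf13. Between times in Col1a1-free spots they ranged from -0.16 to 0.84 for Cxcl12, from -0.79 to 0.36 for Ackr3 and from -0.57 to 0.0868 for Tnfsf13. Between deleter and WT they ranged from -0.0399 to 0.36 for Ackr3, from -0.70 to 0.54 for Il7r, from -0.30 to 1.14 for Tnfsf13b and from -0.51 to 0.14 for Tnfsf13. The Cxcl12 correlation with Igkc was 0.341 by Spearman. No paired analysis was possible because slice numbers carry no meaning and the groups are different mice, while the classes within a slice were blocked by slice. Il7, with at most 8 UMIs per slice, could not be tested at this depth.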
